A study of Mus musculus with 31 samples.

Results

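The Dlk1-Dio3 region of mouse chromosome 12 holds one of the largest miRNA clusters of the genome. The members described here are the entries of an Agilent 1-colour mouse miRNA array whose names match a list of the cluster's miRNAs. The list gave 69 of the 650 miRNAs on the array, from 47 precursors, and 22 of these precursors have both arms on the array. Total RNA came from excised lungs of female BALB/c mice, an inbred strain. The mice breathed cigarette smoke or room air (called control) for 4, 6, 8 or 12 weeks. The 8 groups hold 4 arrays each, except 12 weeks smoke with 3, so 31 arrays in all. The sources used here give neither the age of the mice nor the number of cigarettes. They do not say either that each array is a mouse of its own, so the p-values cover only the spread among these arrays, and that spread may be technical.

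The region is imprinted: the protein-coding genes Dlk1, Rtl1 and Dio3 are expressed from the paternal chromosome, and the long noncoding RNAs Meg3, Rian and Mirg and the miRNAs from the maternal one. Cluster miRNAs are known for high levels in embryo, placenta and brain and for low levels in most adult organs. A mature miRNA pairs with messenger RNAs mainly through its seed, bases 2 to 8, and lowers their stability or translation.

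Of the 69 members, 8 were above background on at least 75% of the arrays of a group and were tested. The RefSeq mature sequences of 7 of them (GRCm38.p6, plus strand) are shown because the comparisons of these 7 members rest on probes named for these miRNAs. Capitals mark the seed.

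miR-127-3p: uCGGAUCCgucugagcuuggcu
miR-434-3p: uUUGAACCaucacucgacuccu
miR-136-5p: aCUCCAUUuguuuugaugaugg
miR-379-5p: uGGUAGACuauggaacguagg
miR-329-3p: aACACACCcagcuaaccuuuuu
miR-494-3p: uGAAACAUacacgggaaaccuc
miR-377-3p: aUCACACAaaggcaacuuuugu

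The other tested member is miR-376c-3p. In RefSeq, miR-127-3p (chr12:109592888-109592909), miR-434-3p (chr12:109594565-109594586) and miR-136-5p (chr12:109595331-109595352) lie within the span of Rtl1. They are transcribed antisense to it, and miR-127 and miR-136 are known to act on the Rtl1 transcript. Further along lie miR-379-5p (chr12:109709065-109709085), miR-329-3p (chr12:109713541-109713562), miR-494-3p (chr12:109715367-109715388) and miR-377-3p (chr12:109740553-109740574), members of the large miR-379 to miR-410 block. By position alone, the span of Rtl1, on the opposite strand, holds 18 members with 3 tested. That of Mirg holds 10 with 1 tested, and those of Meg3 and Rian 2 each with none tested. The 7 seeds all differ. Among the 64 members with a RefSeq sequence there are 63 different seeds, and the one shared seed belongs to miR-376b-5p and miR-376c-5p. The tested members therefore do not form a seed family.

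Most of the cluster was not above background in these lungs. The scanner software marks each spot well above background or not, and a miRNA counts as detected on an array when at least 50% of the spots of one of its probes are marked. By this rule 53 of the 69 members were never detected, 8 were detected on 1 to 7 arrays without reaching the 75% needed for a test, and 8 were tested. This is 11.6% of the members, beside 48.3% of the other mouse miRNAs on the array (262 of 542). Only miR-127-3p and miR-494-3p were detected on all 31 arrays. miR-379-5p was detected on 27 arrays, miR-136-5p on 26, miR-434-3p on 22, miR-329-3p on 16, miR-376c-3p on 9 and miR-377-3p on 6. The members detected too rarely to be tested were miR-300-3p on 7 arrays, miR-154-5p on 5, miR-337-3p, miR-376a-3p and miR-411-5p on 2 each, and miR-136-3p, miR-337-5p and miR-411-3p on 1. Both arms of a precursor were seen for 3 precursors, those of miR-136, miR-337 and miR-411. The scanner software also gives a detection mark of its own per miRNA, and with it 22 members were detected somewhere and 4 on every array. That mark added 6 members, of which miR-668-3p was marked on 16 arrays and the other 5 on 1 to 3.

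**Figure D1:**
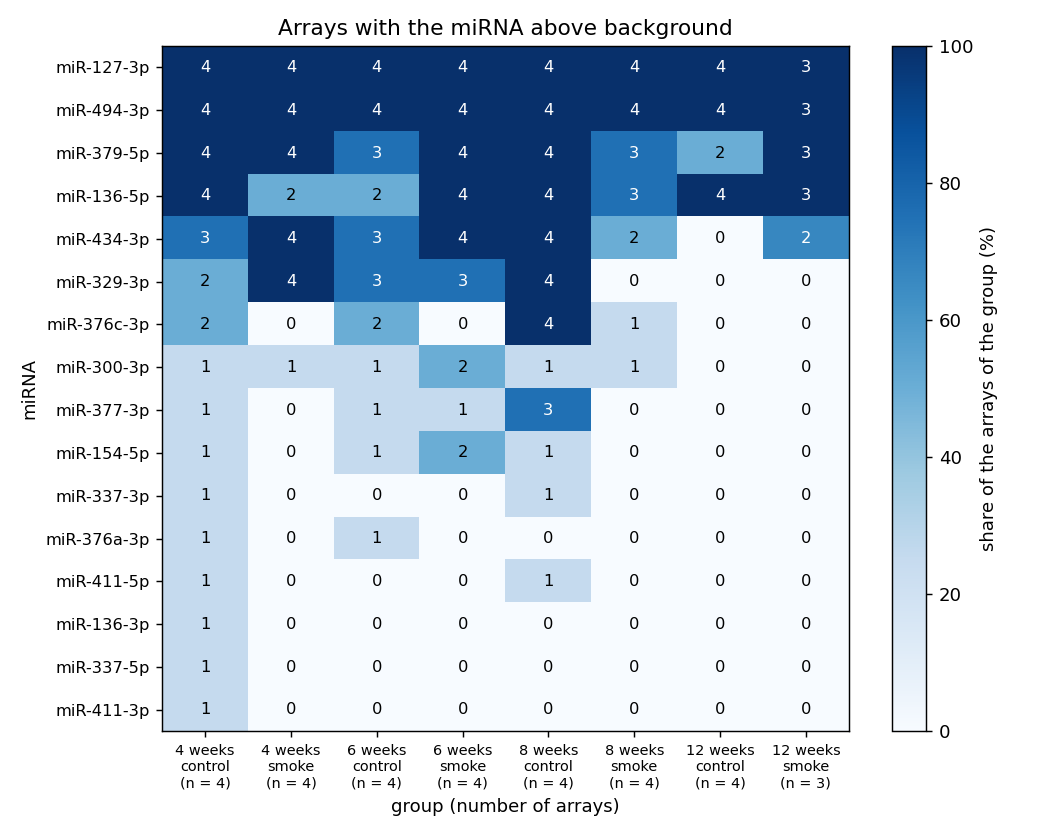
Number of arrays on which each of the 16 detected members was above background (printed in the cell, shaded by the share of the group's arrays in percent), for each of the 8 groups. miR-127-3p and miR-494-3p fill every cell, and the lowest 3 members were seen on 1 array each, in the 4 weeks control group.

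The number of members detected moved with the brightness of the array. Brightness is given here as the 75th percentile of the 385 probes detected on all arrays, before scaling, in scanner intensity units. It ranged from 1018 to 3725, and members detected ranged from 2 to 16 with a median of 5. On the 10 dimmest arrays (up to 1463) 2 to 6 members were detected, with a median of 4. On the 10 brightest (from 2249) there were 6 to 16, with a median of 8. All 16 members ever detected were seen on control array 4 of 4 weeks, which is the only array with miR-136-3p, miR-337-5p and miR-411-3p. Its brightness was 2875. The other arrays with over 10 members were control array 2 of 8 weeks (12 members, brightness 3472) and control array 2 of 6 weeks (11 members, brightness 3725).

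**Figure D2:**
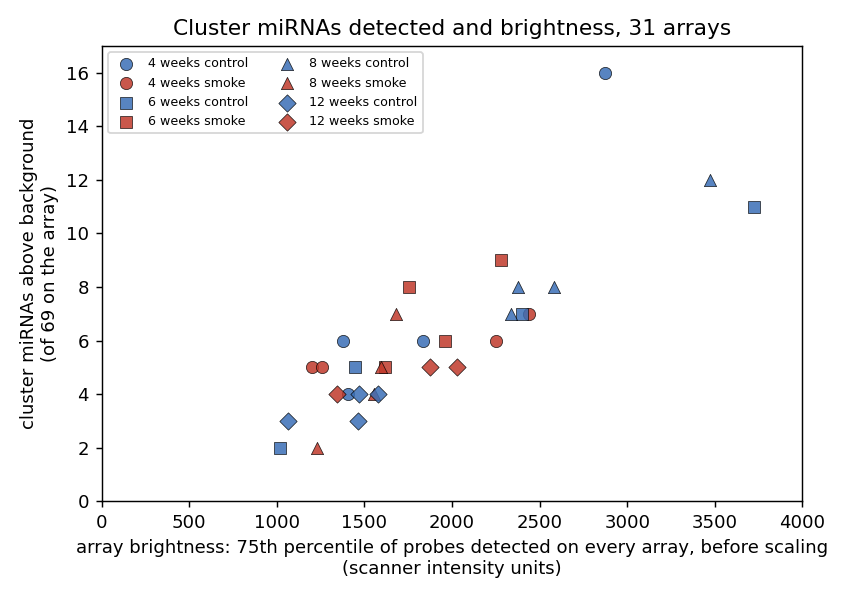
Members above background (of 69) against array brightness (scanner intensity units, before scaling), 1 point for each of the 31 arrays, control in blue and smoke in red, with a shape for each duration. The 3 arrays with 11, 12 and 16 members are bright control arrays, and the 4 control arrays of 8 weeks lie to the right of the 4 smoke arrays of 8 weeks.

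Brightness also differed between groups. At 8 weeks the control arrays had 7, 8, 8 and 12 members at a brightness of 2337 to 3472, and the smoke arrays 2 to 7 members at 1229 to 1681, so that brightness did not overlap between them. Over all miRNAs the same arrays had 253 to 291 and 226 to 247 detected. At 12 weeks the control arrays had 3 to 4 members and the smoke arrays 4 to 5. Detection counts between groups are therefore given as a description, and the part of brightness in them was not tested. On every slide the smoke RNA was hybridised to one line of arrays, the control RNA to the other, and each duration to its own column, so array position cannot be told apart from smoke or duration. The levels below are scaled for brightness: log2 of the signal over the 75th percentile of the array, with a floor at -6.74 under which no level is read. The brightest probe stands for each miRNA, and levels of different miRNAs are not compared.

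The difference of largest size between smoke and room air among the tested members was that of miR-136-5p after 4 weeks. Its log2 levels were -4.76, -5.36, -5.30 and -4.60 on the control arrays and -5.48, floor, floor and -5.55 on the smoke arrays. Every smoke array lay below every control array, and the scanner signal of smoke arrays 2 and 3 was not above background. The group means were -5.01 ± 0.38 (SD, n = 4) in control and -6.13 ± 0.71 (SD, n = 4) in smoke. miR-136-5p fell by 1.12 ± 0.36 log2 (SE; limma adjusted p 0.022; 95% interval -1.87 to -0.37). Within the 4 slides, smoke minus control was below 0 on each, from -1.44 to -0.72. The dimmer probe of miR-136-5p gave -0.70. In a bulk sample, fewer cells of a type and less RNA per cell cannot be told apart.

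The fall of miR-136-5p rests on few arrays. Without smoke arrays 2 and 3 it was -0.51 (limma adjusted p 0.547). Leaving out single arrays also ended the call: adjusted p was 0.0552 without control array 1, 0.0766 without control array 4, 0.113 without smoke array 2 and 0.083 without smoke array 3. With a floor 4 times higher the difference was -0.03 (0.141), so its size depends on where the floor lies. Smoke arrays 2 and 3 were dim, the third and the fifth dimmest of all 31, with brightness 1201 and 1259. The other 3 arrays with miR-136-5p at the floor, control arrays 3 and 4 at 6 weeks plus smoke array 1 at 8 weeks, had 1446, 1018 and 1229. With brightness as a covariate, an alternative added after seeing the data, the 4 weeks difference was -1.06 (0.0034).

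After 6, 8 and 12 weeks miR-136-5p did not differ beyond the spread of the arrays, with differences of -0.06, -0.06 and -0.03 log2 and adjusted p from 0.971 to 1. The 95% intervals were wide, from -0.81 to 0.69 at 6 weeks and from -0.84 to 0.79 at 12 weeks. At 8 weeks the smoke arrays ran from the floor (array 1) and -6.38 (array 4) to -5.03 (array 2) and -4.87 (array 3), around control arrays of -5.81 to -5.54. The difference between durations itself did not pass (interaction F test, limma adjusted p 0.218).

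miR-494-3p had higher levels in smoke at 4 and 12 weeks. At 4 weeks its levels were -4.84, -5.11, -4.98 and -4.70 in control and -4.55, -4.50, -4.69 and -4.48 in smoke. The groups did not overlap, but the gap between the highest control array and the lowest smoke array was small. The mean rose from -4.91 ± 0.18 (SD, n = 4) to -4.56 ± 0.09 (SD, n = 4), a difference of 0.35 ± 0.12 log2 (SE; limma adjusted p 0.0304) or 1.28-fold. The median difference of all 273 tested miRNAs was itself 0.17 log2 at 4 weeks, and the rise of miR-494-3p is to be read beside that shift.

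At 12 weeks miR-494-3p levels were -4.68, -4.93, -4.68 and -4.79 in control and -4.11, -4.13 and -4.61 in smoke. Smoke arrays 1 and 2 stood clear of control and array 3 lay just above it. The mean rose from -4.77 ± 0.12 (SD, n = 4) to -4.28 ± 0.28 (SD, n = 3), a difference of 0.49 ± 0.13 log2 (SE; limma adjusted p 0.0181) or 1.40-fold. The median of all tested miRNAs was -0.08 log2 there.

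At 6 weeks miR-494-3p lay the other way. Its levels were -4.66, -4.22, -4.63 and -4.61 in control and -5.07, -4.41, -4.92 and -4.85 in smoke. The difference was -0.28 log2 (limma adjusted p 0.171), with smoke lower on 4 of 4 slides and overlap only through smoke array 2. At 8 weeks the levels were -4.88, -5.03, -4.90 and -4.82 in control and -4.90, -4.81, -4.80 and -4.79 in smoke, a difference of 0.08 (0.78). The smoke effect on miR-494-3p differed between durations (interaction F test, limma adjusted p 0.0292), where 6.96% of the 273 miRNAs passed and miR-494-3p was the only member to do so. The dimmer probe of miR-494-3p gave 0.21, -0.38, 0.05 and 0.58 log2 at 4, 6, 8 and 12 weeks, with the same signs. Averaged over durations, miR-494-3p was 0.16 log2 higher (limma adjusted p 0.0618).

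The calls of miR-494-3p also rest on single arrays and on the scaling. At 4 weeks the adjusted p was 0.0828 without control array 2, 0.0649 without control array 3, 0.102 without smoke array 2 and 0.0502 without smoke array 3. At 12 weeks it was 0.0687 without control array 2, 0.152 without smoke array 1 and 0.127 without smoke array 2, and 0.0026 without smoke array 3. The interaction was at 0.0517 to 0.064 without smoke arrays 1, 3 or 4 of 6 weeks, control array 2 of 12 weeks or smoke arrays 1 or 2 of 12 weeks. After a normexp background correction the 4 weeks difference turned to -0.77 (0.13), where the median of all miRNAs is -0.75. In the authors' deposited values the differences were 0.15 (0.539) at 4 weeks and 0.44 (0.138) at 12 weeks.

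**Figure D3:**
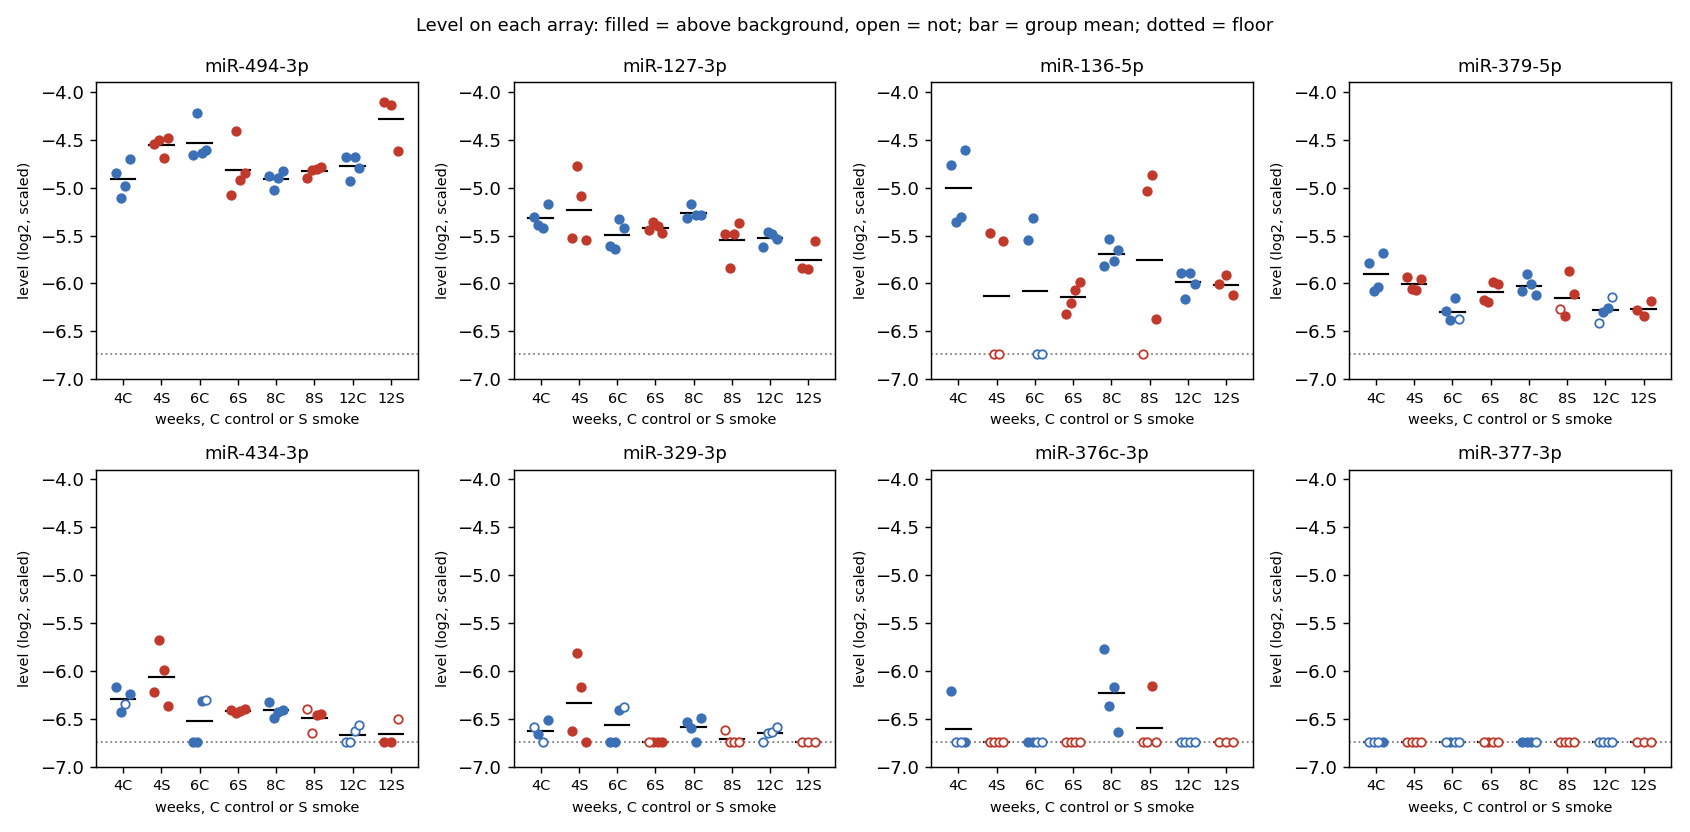
Level of each tested member (log2, scaled to the array's 75th percentile) on each of the 31 arrays, by weeks (4, 6, 8, 12) and control (C, blue) or smoke (S, red). Filled points were above background, open points were not, bars are group means and the dotted line is the floor. miR-136-5p has smoke arrays at the floor at 4 weeks, miR-494-3p is highest on smoke arrays 1 and 2 of 12 weeks, and miR-377-3p is at the floor throughout.

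Counted over the cluster, 2 of the 8 tested members passed at 4 weeks, miR-136-5p lower and miR-494-3p higher, beside 39.6% of the 273 miRNAs. Over all miRNAs 28.2% were called higher and 11.4% lower. Groups did not overlap for 2 members at 4 weeks, beside 29.7% of all. None passed at 6 weeks (8.06% of all) or at 8 weeks (11.0% of all), and 1 passed at 12 weeks, miR-494-3p (9.52% of all), whose groups did not overlap either (smoke higher in 16.5% of all). At an unadjusted limma p under 0.05 there were 2 members at 6 weeks (miR-379-5p and miR-494-3p) beside 19.8% of all, and 2 at 8 weeks (miR-127-3p and miR-376c-3p) beside 23.8%. For miR-376c-3p this follows in part from the filter, which it passed only through the 8 weeks control group. Averaged over durations no member passed, beside 27.5% of all, and 1 had an unadjusted limma p under 0.05 (miR-494-3p), beside 39.9%. The median difference over the 8 members was 0.04, 0.00, -0.10 and 0.00 log2 at the 4 durations, and 0.17, 0.01, -0.05 and -0.08 over all tested miRNAs. Without smoke arrays 2 and 3 of 4 weeks no member passed at 4 weeks, and the count over all miRNAs went from 108 to 17.

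**Figure D4:**
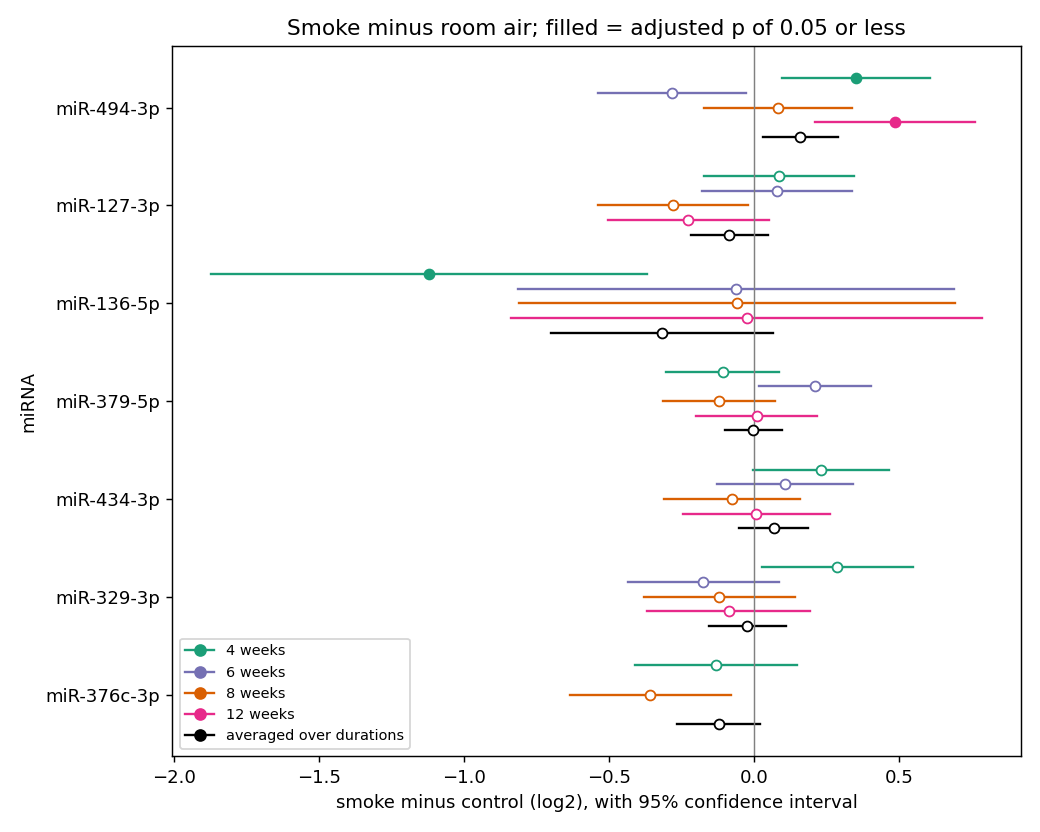
Smoke minus control (log2) with the 95% confidence interval of the limma fit, for 7 tested members at each duration (colours) and averaged (black). Filled points have an adjusted p of 0.05 or less, which are miR-136-5p at 4 weeks and miR-494-3p at 4 and 12 weeks. Comparisons with every array at the floor, and miR-377-3p, are left out because no difference can be read there.

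The remaining members of the antisense Rtl1 group did not pass in any smoke comparison. miR-127-3p, known from work on fetal lung development, had levels of -5.32, -5.17, -5.29 and -5.29 in control and -5.48, -5.84, -5.49 and -5.37 in smoke at 8 weeks. All 4 smoke arrays lay below the control arrays, and smoke was lower on 4 of 4 slides. The difference of -0.28 ± 0.13 log2 (SE) had a limma adjusted p of 0.177. Groups that do not overlap with smoke lower were 12.1% of all miRNAs at 8 weeks. The call of miR-127-3p changes with the setting: with brightness as a covariate the difference is -0.42 (0.0124), with quantile normalization -0.31 (0.0242), in the authors' deposited values -0.27 (0.033), and with smoke arrays 2 and 3 of 4 weeks left out of the shared spread -0.28 (0.031). After normexp it turns to 0.30 (0.824), where the median of all miRNAs is 0.21, and with a floor 4 times higher all 8 arrays are at the floor. At 12 weeks miR-127-3p was -0.23 (0.295), with smoke lower on 3 of 3 slides. miR-434-3p lay 0.23 higher in smoke at 4 weeks (0.1), on slides 2 and 3 only.

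In the miR-379 to miR-410 block, miR-379-5p was higher in smoke by 0.21 at 6 weeks (limma adjusted p 0.183) on 4 of 4 slides, and differed by -0.12 to 0.01 at the other durations. miR-329-3p, known from neurons, was at the floor on 16 arrays. It was detected on 4 of 4 control arrays and 0 of 4 smoke arrays at 8 weeks, the opposite of 4 weeks with 2 of 4 control and 4 of 4 smoke arrays. Its difference was 0.29 at 4 weeks (0.0708) and -0.12 at 8 weeks (0.666). miR-376c-3p had levels of -5.77, -6.37, -6.17 and -6.64 on the 8 weeks control arrays, while smoke array 3 had -6.15 and the other 3 smoke arrays were at the floor. Its difference of -0.36 log2 had a limma adjusted p of 0.0914, and it passed when either smoke array 3 (-0.50, 0.009) or control array 4 (-0.49, 0.0143) was left out. miR-376c-3p was tested only because all 4 control arrays of 8 weeks detected it, with at most 2 arrays in any other group, so a lower level in the 8 weeks smoke group follows in part from the filter. Of the 31 arrays, 25 had it at the floor. miR-377-3p was marked above background on 3 of 4 control arrays at 8 weeks, which is why it was tested, but its scaled level was at the floor on all 31 arrays.

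With brightness as a covariate, members passing in the smoke comparisons were 4 at 4 weeks and 4 at 8 weeks in place of 2 and none. At 4 weeks these were miR-136-5p lower and miR-329-3p, miR-434-3p and miR-494-3p higher, and at 8 weeks miR-127-3p, miR-329-3p, miR-376c-3p and miR-434-3p lower. Since miR-376c-3p was tested only through its detection in the 8 weeks control group, its lower level there follows in part from the filter. The same covariate took the count over all miRNAs from 108 to 150 at 4 weeks and from 30 to 121 at 8 weeks. At 8 weeks brightness and smoke do not overlap, so that fit rests on the slope within groups.

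Over time in room air, miR-379-5p differed between durations (moderated F test, limma adjusted p 0.0124; 6.96% of all passed). miR-379-5p was at -5.79, -6.08, -6.03 and -5.68 at 4 weeks and -6.29, -6.38, -6.15 and -6.37 at 6 weeks, with no overlap. At 8 weeks it was -6.12 to -5.90 and at 12 weeks -6.41 to -6.14, so the 4 weeks and 8 weeks groups overlapped, as did those of 6 and 12 weeks. Without control array 4 of 4 weeks the adjusted p of miR-379-5p was 0.0582, and it was 0.167 with the scaling percentile taken over all probes, 0.0549 with quantile normalization and 0.0798 in the authors' deposited values. The other member past the threshold, miR-376c-3p (limma adjusted p 0.0435), was tested only because of its detection in the 8 weeks control group, where it is highest, so its call is a description and supports nothing. It was above the floor on all 4 control arrays of 8 weeks and on 1 other control array, the first of 4 weeks. Its 8 weeks control level was at least 1.18-fold that of 12 weeks, where it was not well above background. The call of miR-376c-3p held without 12 of the 31 arrays in turn and was lost without the other 19, with adjusted p of 0.0525 to 0.159. The 8 weeks control arrays were also the brightest control group by their lowest value, and the part of brightness in this was not tested.

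Over time in smoke, miR-434-3p and miR-494-3p differed between durations (moderated F test, limma adjusted p 0.0166 and 0.0382; 3.30% of all passed). miR-434-3p was at -6.22, -5.68, -5.99 and -6.37 at 4 weeks, -6.44 to -6.40 at 6 weeks, -6.65 to -6.40 at 8 weeks, and floor, floor and -6.50 at 12 weeks. Every smoke array of 4 weeks lay above every later smoke array. Without smoke arrays 2 and 3 of 4 weeks the adjusted p was 0.193, and without 2, 3 or smoke array 2 of 12 weeks alone 0.0781, 0.0724 and 0.0533. With the scaling percentile over all probes it was 0.0818, and 0.0481 in the authors' deposited values. For miR-494-3p the 12 weeks group stood highest, and without smoke array 1 or 2 of 12 weeks the adjusted p was 0.125 and 0.129. Without smoke arrays 2 and 3 of 4 weeks it was 0.054, leaving out any of 12 arrays singly put it at 0.0513 to 0.129, and in the authors' deposited values it was 0.421. In both treatments duration is also the column on the slide, and the 2 cannot be told apart.

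Across all 31 arrays, miR-127-3p, miR-434-3p and miR-329-3p rose and fell together, and miR-136-5p did not follow them. This was not particular to the cluster, as miRNAs outside it, named after their values were seen, were as alike. miR-322-3p had r = 0.82 with miR-127-3p, 0.70 with miR-434-3p and 0.78 with miR-329-3p (0.73, 0.52 and 0.69 without smoke arrays 2 and 3 of 4 weeks). let-7e-5p had r = 0.79 with miR-329-3p (0.48 without these arrays). Of the 15 pairs among 6 members (miR-376c-3p and miR-377-3p were left out because most values are at the floor), 7 passed after adjustment (two-sided permutation test of Pearson's r, 100000 resamples). These p-values are for the 31 arrays of all 8 groups together, so differences between group means count in them. Values with group means removed are given without a p-value. miR-127-3p and miR-434-3p had r = 0.82 and rho = 0.67 (permutation p 1e-05 and 6e-05; adjusted 5e-05 and 0.0009), the first being the smallest p the resamples can give. Without the 2 arrays farthest from the median r was 0.70, and without smoke arrays 2 and 3 of 4 weeks 0.68. With group means removed it was 0.82, and within the 4 slides 0.67 to 0.90. These arrays share depth and slide, and the 3 miRNAs lie near the floor, so a common technical part in these values was not tested.

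miR-329-3p, at the floor on 16 of the arrays, gave less firm values. miR-127-3p and miR-329-3p had r = 0.74 (rho 0.61; 0.49 without smoke arrays 2 and 3 of 4 weeks), and miR-434-3p and miR-329-3p r = 0.78 (rho 0.61; 0.48 without them). On these 2 arrays miR-127-3p (-4.78 and -5.09), miR-434-3p (-5.68 and -5.99) and miR-329-3p (-5.81 and -6.17) had their highest values of the series. miR-136-5p was at the floor on the same arrays. miR-127-3p and miR-434-3p lie within the span of Rtl1, as miR-136-5p does, and share the strand of miR-136-5p.

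miR-136-5p had r = -0.22 with miR-127-3p (rho -0.14) and -0.22 with miR-434-3p (rho -0.12), with adjusted permutation p of 0.331 for both. Without smoke arrays 2 and 3 of 4 weeks these were 0.04 and 0.09. With group means removed they were -0.60 and -0.62, and -0.46 and -0.52 when those 2 arrays were also left out. With miR-329-3p, miR-136-5p had r = -0.42 (adjusted permutation p 0.0386; rho -0.23, adjusted 0.366), which was -0.18 without the 2 arrays farthest from the median. With miR-379-5p it had r = 0.45 (adjusted permutation p 0.0274; rho 0.36, adjusted 0.103), which was 0.22 without the 2 farthest arrays. The other pairs that passed were miR-379-5p with miR-127-3p (r = 0.54, adjusted permutation p 0.00594) and with miR-434-3p (r = 0.56, adjusted 0.00401). With group means removed these fell to 0.25 and 0.20, and were 0.58 and 0.41 when smoke arrays 2 and 3 of 4 weeks were also left out. Within the 4 slides they ran from 0.07 to 0.80 and from -0.0007 to 0.86. The miRNA most like miR-136-5p among the 273, named after its values were seen, was miR-33-5p of the Srebf2 gene, with r = 0.96 and rho = 0.95 over 31 arrays. The relation was as high without smoke arrays 2 and 3 of 4 weeks (0.95) and with group means removed (0.97). At 4 weeks miR-33-5p was -4.30, -4.89, -4.75 and -3.79 in control and -4.93, floor, -6.22 and -4.95 in smoke, falling by 1.28 log2 (limma adjusted p 0.0414). Next were miR-144-3p, an erythroid miRNA (r = 0.89), and miR-32-5p (r = 0.88), both lower at 4 weeks (-1.31, limma adjusted p 0.0487, and -1.58, 0.0107). The other erythroid marker, miR-451, did not fall at 4 weeks (0.11, limma adjusted p 0.375). The summed level of the 2 erythroid markers was 5.72 to 6.06 in control and 6.00 to 6.11 in smoke there. None of the 10 miRNAs most like miR-136-5p was a cluster member. The median G+C content of the 9 with a sequence was 40.9%, beside 36.4% for miR-136-5p and 45.5% over the 210 tested miRNAs with a sequence. At 4 weeks the third of these 210 miRNAs lowest in G+C held 12 of 70 that fell, the middle 6 of 70 and the highest 2 of 70. Those called higher were 21, 27 and 22. G+C content had r = 0.20 with the 4 weeks difference, -0.003 without smoke arrays 2 and 3 of 4 weeks and -0.17 after normexp. The part of base composition was not tested.

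**Figure D5:**
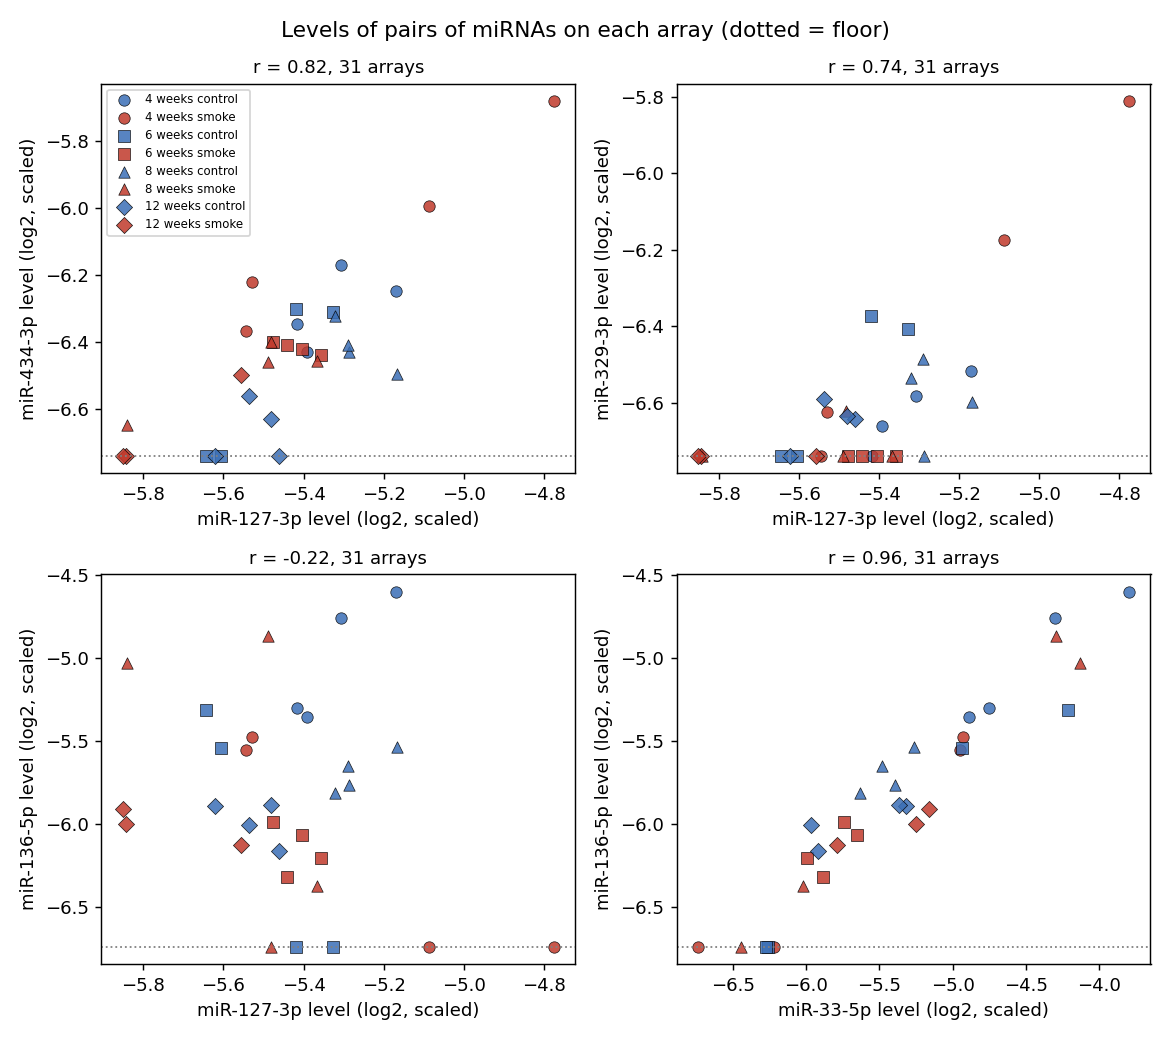
Levels (log2, scaled) of pairs of miRNAs on each of the 31 arrays, control in blue and smoke in red, a shape for each duration, with the floor dotted. miR-127-3p runs with miR-434-3p (r = 0.82) and miR-329-3p (r = 0.74), miR-136-5p does not run with miR-127-3p (r = -0.22) but runs with miR-33-5p (r = 0.96).

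Among the miRNAs most like miR-127-3p, miR-434-3p and miR-329-3p were miRNAs of the region that are outside the member list. miR-1906, detected on 8 arrays, had r = 0.69 with miR-434-3p (rho 0.52) and 0.90 with miR-329-3p (rho 0.63), its highest r. Outside the 4 weeks smoke and 6 weeks control groups, miR-1906 was at the floor on every array. Its r values therefore rest on few arrays above the floor and are only a description. Without smoke arrays 2 and 3 of 4 weeks the r values of miR-1906 were 0.25 and 0.63. miR-299b-5p (chr12:109710673-109710693, minus strand, GRCm38.p6), named after its values were seen, had r = 0.81 with miR-127-3p and 0.77 with miR-434-3p over 31 arrays, and 0.77 and 0.72 without smoke arrays 2 and 3 of 4 weeks. It did not pass in any smoke comparison (differences of -0.33 to 0.01 log2). Most like miR-379-5p were miR-205-5p (r = 0.74) and the striated muscle miRNAs miR-1a-3p (0.72), miR-133b-3p (0.72) and miR-133a-3p (0.71), against 0.54 for miR-127-3p. miR-133a-3p and miR-133b-3p also differed between durations in room air (limma adjusted p 0.0124 and 0.0142). At 6 weeks, where miR-379-5p lay higher in smoke without passing, so did miR-133a-3p (1.12 log2, limma adjusted p 0.0563) and miR-133b-3p (1.08, 0.0761). miR-494-3p had no close relative: its highest r was 0.46, with miR-20a-5p, and it did not correlate with miR-127-3p (r = -0.36, adjusted permutation p 0.0941) or with any other of the 5 members after adjustment.

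Markers of cell types a lung sample can hold moved with some of these results. Of the neural markers, miR-124-3p and miR-9-3p were never detected and miR-9-5p was on 2 arrays, with no neural marker tested. At 4 weeks, where miR-136-5p fell, the summed level of the 6 leukocyte markers was 3.22 to 3.27 in control and 2.52 to 3.14 in smoke. A summed level is log2 of the added unlogged levels, so bright markers weigh most in it. Single leukocyte markers went both ways. Called higher were 3, miR-155-5p (0.86 log2), miR-342-3p (0.86) and miR-223-3p (0.76). Called lower were 2, miR-142-3p (-1.28) and miR-142-5p (-1.06). The median difference of the 6 leukocyte markers was 0.56 log2. The summed level of 3 striated muscle markers (miR-133a-3p, miR-133b-3p and miR-206-3p, without miR-1a-3p) was -0.92 to 0.95 in control and -1.23 to -1.04 in smoke. Of these, miR-133a-3p and miR-133b-3p were lower and miR-206-3p was not tested. The 6 epithelial markers were at 2.58 to 2.74 in control and 2.77 to 3.11 in smoke, with 3 higher, and the 6 stromal markers overlapped. At 6 weeks, where miR-379-5p lay higher in smoke without passing, the striated muscle sum was -2.02 to -1.86 in control and -1.23 to -0.77 in smoke. None of its markers passed there. At 12 weeks, where miR-494-3p rose, the leukocyte sum was 3.19 to 3.41 in control and 2.70 to 3.00 in smoke, with none of its 6 markers past the threshold. The 2 endothelial markers were at 5.07 to 5.14 and 4.83 to 4.94, with 1 lower. The epithelial sum was 2.82 to 2.91 in control and 2.92 to 2.95 in smoke, with 1 marker higher, and the erythroid sum 5.95 to 6.07 and 6.17 to 6.26, with none past the threshold. The liver miRNA miR-122-5p was at the floor on all control arrays and reached 1.57 on 1 smoke array of 12 weeks. The part of cell composition in the results was not tested.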

How the data were processed

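Total RNA was extracted with TRIzol and labelled with Cy3, per the labels. The spot values used are scanner intensity that Feature Extraction 10.7.3.1 had corrected for background, with no step between arrays, per the file headers. The same software wrote the codes (0 or 1) for outlier spots and for spots above background in the deposited files. Each array has 13715 spots. The authors also deposited a table of log2 values for 650 miRNAs, and the labels do not say how it was normalized. Array medians in it are 2.71 to 2.85. Each column has r of 0.981 to 0.989 with the scaled values below, which settles its scale and direction but not its centring.

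Control and outlier spots (297 to 655 per array) were left out, spots averaged per probe, and each array divided by the 75th percentile of 385 probes. For the floor, the lowest detected signal of each array was taken after scaling, and the median of these used. The brightest probe stands for each miRNA. Of 650 miRNAs, 273 were tested (207 detected on every array) in R 4.3.3 with limma 3.58.1: 8 group means, 23 residual degrees of freedom, adjusted p-values of Benjamini and Hochberg over 273, threshold 0.05. Correlations used Python 3.11.15. The code was tested on simulated data. A bound ("at least") sets the brighter mean over, per array of the dimmer group, the larger of the lowest detected signal and the probe's own.

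Every tested member is named, and outside the cluster only listed miRNAs and those said to be named after their values were seen. The members and lists were chosen with earlier results of these data known. Alternatives were other scalings, probe summaries, floors, filters, the deposited values, blocks, left-out arrays, and normexp with offset 50, which used median spot and background signals in place of mean signals. The number of arrays limits precision.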

Additional observations from a re-analysis of the deposited data

Results flagged for a closer look

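In groups of 4 arrays, 1 array stood apart from the other 3 for miR-494-3p in the 6 weeks control group, where array 2 was at -4.22 log2 and the nearest other array at -4.61. The same held in 3 groups where the other 3 arrays were at the floor: miR-329-3p on smoke array 1 of 8 weeks (-6.62), miR-376c-3p on control array 1 of 4 weeks (-6.21) and miR-376c-3p on smoke array 3 of 8 weeks (-6.15). These are 4 of 44 groups examined. Chance flags about 1 in 20 groups of untied values, a rate that does not apply to the 3 groups with 3 arrays tied at the floor. The smoke effect on miR-494-3p differed between durations by the interaction F test (limma adjusted p 0.0292).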

How the results depend on the processing

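Over the 8 tested members, 832 of 944 values recomputed under settings other than leaving out 1 array kept their direction (where called) and their side of the threshold, 55 lost a call, 56 gained one, and 1 called value turned: miR-494-3p at 4 weeks, -0.77 after normexp. In all, 102 of 521 uncalled values changed sign. With 1 array left out in turn, 52 of 1984 values lost a call and 18 gained one. The numbers of members called were 2, 0, 0 and 1 at 4, 6, 8 and 12 weeks, 0 averaged, 1 in the interaction, and 2 each between durations in room air and in smoke. At 4 weeks they were 0 with the percentile over all probes, no scaling, a floor 4 times higher, that duration alone, or without smoke arrays 2 and 3; 1 with quantile normalization, mean of probes, the scanner's totals, deposited values, normexp, no filter (miR-668-3p) or detection on every array; and 4 with the brightness covariate. At 6 weeks the scanner's totals gave 1. At 8 weeks there were 2 with quantile normalization and deposited values, 4 with the scanner's totals and the brightness covariate, 6 with no scaling and 1 without smoke arrays 2 and 3 of 4 weeks. The 4 with the brightness covariate include miR-376c-3p, which was tested only through the 8 weeks control group. At 12 weeks there were 0 with the percentile over all probes, no scaling, the scanner's totals, normexp or no filter. Averaged, there was 1 with quantile normalization, no scaling, the scanner's totals, the slide block, the brightness covariate or without smoke array 3 of 12 weeks, 2 without smoke arrays 2 and 3 of 4 weeks, and 3 in deposited values. In the interaction there were 0 with the percentile over all probes, quantile normalization, the higher floor, deposited values, normexp or no filter, 4 with no scaling and 5 with the brightness covariate. Between durations in room air there were 5 with no scaling, 6 with the brightness covariate, 1 with mean of probes, deposited values, no filter or without smoke array 3 of 12 weeks, and 0 with the higher floor, normexp or detection on every array. In smoke there were 0 with the percentile over all probes, no scaling, the scanner's totals, normexp, detection on every array or without smoke arrays 2 and 3 of 4 weeks, 1 with mean of probes, the higher floor or no filter, and 4 with the brightness covariate. Leaving out 1 array gave 0 to 4 at 4 weeks, 0 to 1 at 6, 8 and 12 weeks and averaged, 0 to 2 in the interaction, 0 to 3 in room air and 0 to 4 in smoke. Counting a member as detected on at least 1 array gives 16 in place of 8. The brightness covariate and the fits without smoke arrays 2 and 3 of 4 weeks or array 3 of 12 weeks were chosen after seeing the data. Most members lie near the floor, where signal over background limits what can be read.

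Replicate numbers were not used to pair the arrays. Over 105 pairs with the same number the median correlation of their deviations was 0.04, 46 exceeded 0.1, and 10 of 31 arrays correlated best with their own number. Over 315 pairs with different numbers the median was -0.03, with 124 over 0.1. Apart from the 12 weeks control group the number is also the slide, so these values cannot settle whether the numbers pair the arrays. Over 105 pairs on the same slide the median was 0.12, with 55 over 0.1, and -0.05 over 315 pairs on different slides. With the replicate block the counts were 2, 0, 0, 1, 0, 1, 2 and 2 in the order above, so no count changed; miR-494-3p was 0.50 (limma adjusted p 0.0195) at 12 weeks.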

Other observations

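Of 7 further miRNAs of the region that the member list leaves out, 6 were never detected. The other, miR-1906, was detected on 8 arrays. It was at the floor on every control array of 4 weeks, so its call at 4 weeks (limma adjusted p 0.046, smoke higher) is given without a size. Of 9 miRNAs of other imprinted loci (Mest, H19, Igf2 and Gnas), 5 were never detected and 3 were tested. miR-335-5p, from an intron of Mest, fell by 0.57 log2 at 8 weeks (limma adjusted p 0.001; 11.0% of all passed). Its smoke effect differed between durations (interaction F test, 0.019; 6.96% of all passed). It also differed between durations in room air (moderated F test, limma adjusted p 0.0142) and in smoke (0.0166). miR-335-3p (-0.37, 0.193) and miR-296-5p of the Gnas locus (0.21, 0.404) did not pass at 8 weeks. Brightness did not overlap between smoke and control arrays of 8 weeks, and its part in the fall of miR-335-5p was not tested. Values of miR-335-5p with arrays left out or under other scalings are not given here. miR-335-3p had r = 0.70 with miR-127-3p and 0.72 with miR-434-3p over 31 arrays.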
